A study of Saccharomyces cerevisiae with 6 samples.

Results

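The methionine, cysteine and S-adenosylmethionine (SAM) cycle was followed in budding yeast through 10 genes, chosen by symbol from the platform annotation: MET2, MET6, MET13, SAM1, SAM2, SAH1, CYS3, CYS4, STR2 and STR3. All 10 were measured, each by 1 probe set, among 5449 genes on the array. After 1 h with LoaOOH, linoleic acid hydroperoxide, a lipid peroxide, the messages for making homocysteine and methionine were higher than in solvent-treated cells, and so were both genes of the route from cysteine back to homocysteine. STR3 rose 3.18-fold (log2 difference 1.67, standard error, SE, 0.062, n = 3 arrays per group) and MET2 rose 2.71-fold (1.44, SE 0.053). The SAM synthetase genes parted, with SAM1 1.82-fold higher and SAM2 1.38-fold lower, and the genes that turn homocysteine into cysteine differed little, CYS3 being 1.14-fold lower and CYS4 not passing the test. These directions are relative to the typical message. When the arrays were scaled to added control RNA, CYS3 and CYS4 came out higher and SAM2 was not called, as described further on.

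The cells were BY4743, a diploid laboratory strain. The labels give no genotype. As background, the strain is known to lack HIS3, LEU2 and URA3 function and to have lost 1 of its copies of MET17 (also called MET15) and of LYS2, and both groups share this. Minimal medium at 30 °C was used, and at OD600 1.0 LoaOOH was given at 75 µM to 3 of the 6 cultures, a dose described as arresting, while the other 3 received the same volume of methanol, the solvent. Each culture was hybridised to its own Affymetrix Yeast Genome 2.0 array, and the deposited RMA values are on the log2 scale, where a difference of 1 is a 2-fold change.

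Methionine is made in yeast by adding reduced sulfur to an activated form of homoserine, which gives homocysteine, and then a methyl group carried by folate. SAM, made from methionine and ATP, is the methyl donor of the cell, and what remains after methyl transfer is split to return homocysteine to the cycle. Homocysteine can also pass through cystathionine to cysteine, the precursor of glutathione, and yeast can run that conversion in the opposite direction with a separate pair of enzymes.

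Differences are LoaOOH minus methanol from a limma fit over all 5498 probe sets that name a gene, and a gene is said to rise or fall where its Benjamini-Hochberg adjusted p was under 0.05. Of the 10 genes 7 rose, 2 fell and 1 was not called. Over all probe sets 78.7% were called, 36.8% higher and 41.9% lower, so the number called is near the background, and 7 of 10 higher stands beside 36.8%. The genes were chosen with earlier results of these data known, so this count is a description and not a test of the pathway. The median difference was 0.60 in the 10 genes and -0.03 over all probe sets. MET2 and STR3 rose at least 2-fold (5.02% of all probe sets did), and no member fell by that much (4.15%). In 8 genes the groups did not overlap, against 81.1% of all probe sets. All 10 lay above the brightest negative control probe set (5.15) in both groups. In bulk RNA, less message per cell and fewer cells holding it cannot be told apart.

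**Figure D1:**
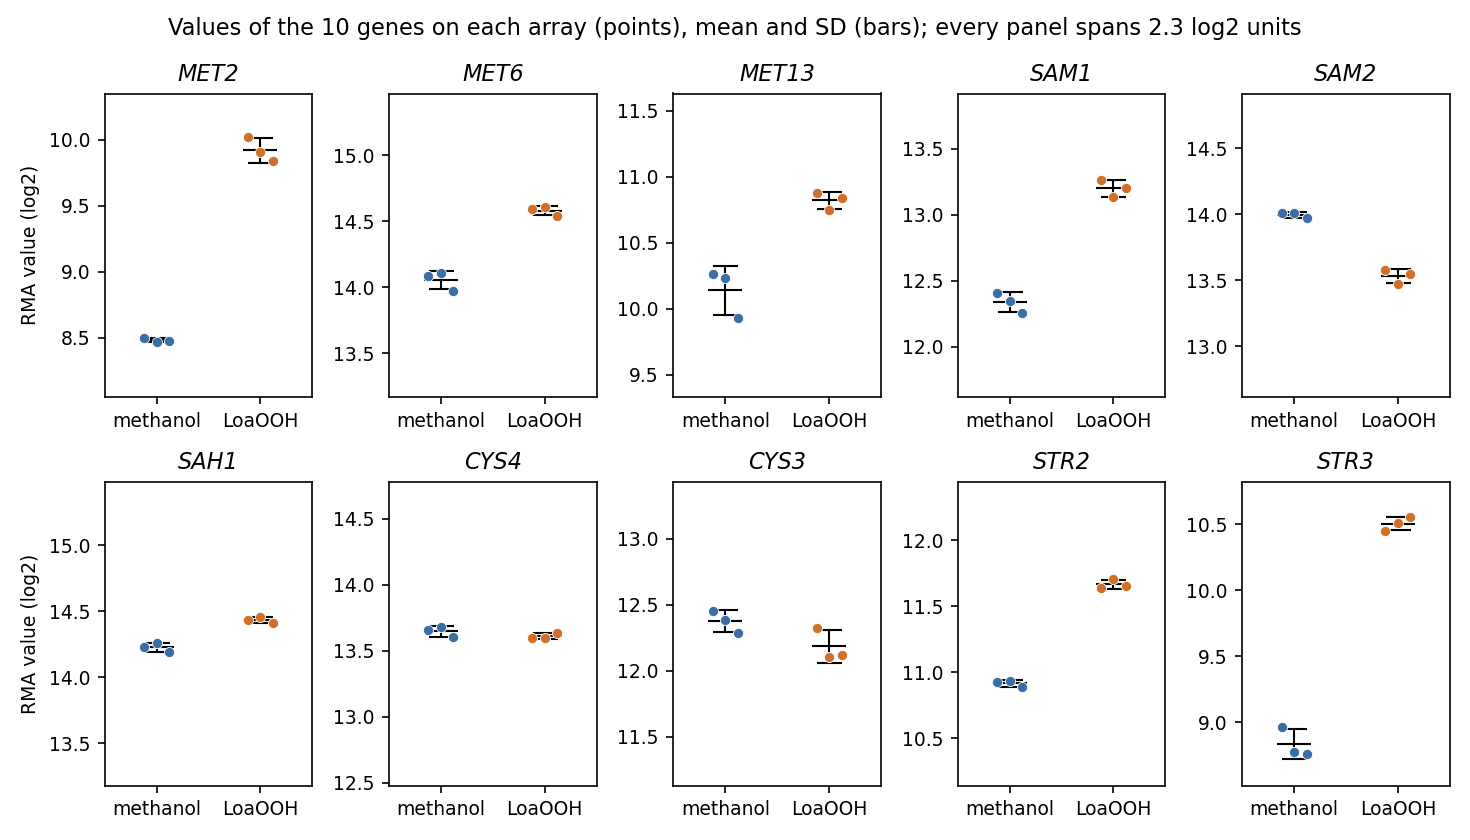
Log2 RMA value (vertical axis) of each of the 10 genes on the 3 methanol arrays (blue) and 3 LoaOOH arrays (orange), with the mean and SD as bars, on axes of equal span. STR3 and MET2 show the widest steps upward, SAM2 steps down, and the points of CYS3 and CYS4 overlap.

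The whole table bears on how these values are read. Correlation between arrays was 0.998 to 0.999 within a group and 0.951 to 0.954 across the groups. The 36 poly-A spike-in probe sets, which detect bacterial messages added to the RNA, were lower in the LoaOOH arrays by 0.518 on the log2 scale (6.93 ± 0.125 against 7.44 ± 0.165, SD, n = 3 each; exact permutation p = 0.1, the smallest possible), and all 36 were lower. Ribosomal RNA probe sets shifted further, with 17 of 17 lower and a mean difference of -0.639 (13.5 ± 0.123 to 12.8 ± 0.111, SD, n = 3 each; exact permutation p = 0.1). Hybridisation controls, added later in the procedure, differed by -0.0156 (exact permutation p = 0.8). The gap between 3' and 5' probe sets, a sign of RNA or labelling quality, was followed in 8 messages. It widened for SRB4 (0.584), the dap spike-in (0.399) and SPT15 (0.163), and it narrowed for WBP1 (-0.147) and ACT1 (-0.137). The other changes were -0.0338 for RIP1, 0.0300 for EAF5 and 0.00117 for TDH1. The part of these shifts in the results below was not tested. Among strain markers URA3 (3.50 in methanol, 3.37 in LoaOOH) lay below the brightest negative control and LEU2 (5.39 and 5.64) just above it. HIS3 was at 11.0 and 12.4, but its allele in this strain is known to lack only part of the gene, and where the probes lie is not given in the sources used here, so it checks nothing. Of 12 haploid-specific genes 11 were among the dimmest 25% of probe sets, and RME1 was not.

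Scaled to the spike-ins, each difference moves up by 0.518 and the median of all probe sets moves from -0.03 to 0.48. Then 65.9% of probe sets were called higher and 7.68% lower, and of the 10 genes 9 were higher, 0 lower and 1, SAM2, not called. STR3 stood at 2.19, MET2 at 1.96, SAM1 at 1.38, STR2 at 1.27, MET13 at 1.198, MET6 at 1.04 and SAH1 at 0.72. The differences that changed sign were those of CYS4 (0.48), CYS3 (0.33) and SAM2 (0.0554, exact permutation p = 0.6, not called). Relative to the median of all probe sets nothing moves: CYS3 and SAM2 lay below that median in both scalings, and CYS4 lay within 0.01 of it. In this scaling the limma fit gave all probe sets the same standard error, 0.136, since the spread of the spike-ins, shared by every gene of an array, outweighs the rest. These calls are therefore not independent of each other. They are also too lenient, because the fit treats that shared spread as known more exactly than 6 arrays allow. By exact permutation over arrays each of the 9 higher genes had p = 0.1, the smallest possible. The same limit holds for every spike-in call given below.

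**Figure D2:**
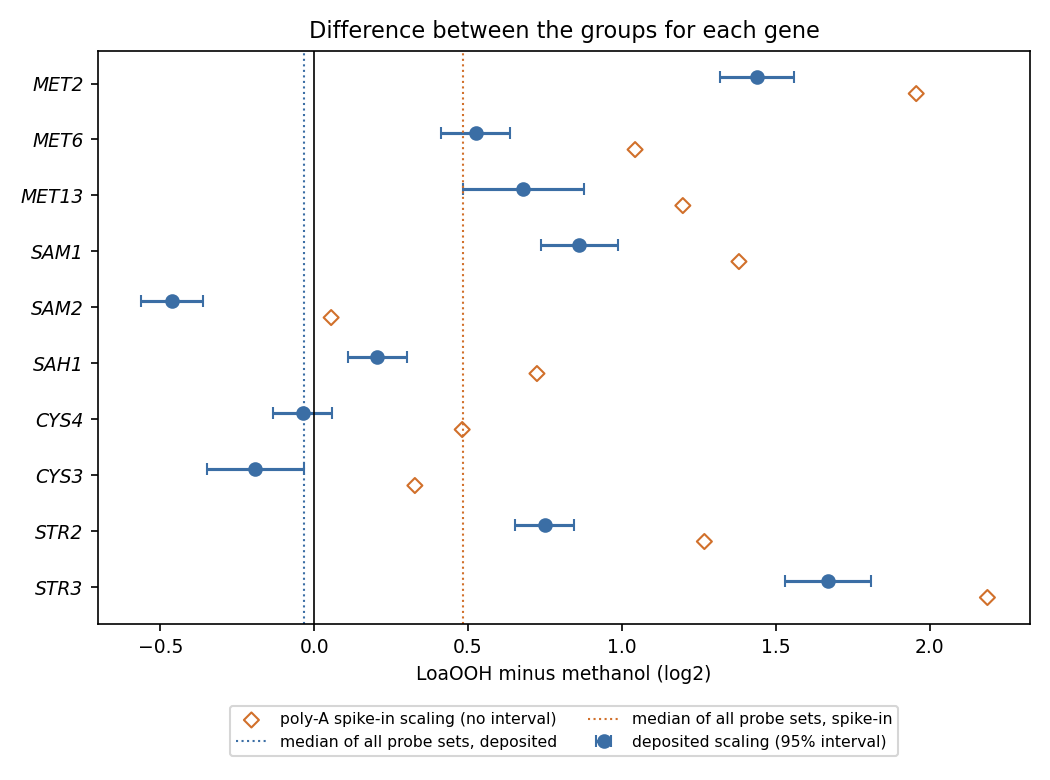
LoaOOH minus methanol (log2, horizontal axis) for each gene, with the 95% interval from limma in the deposited scaling (blue circles) and the value in the spike-in scaling (open diamonds). Dotted lines mark the median of all probe sets in each scaling, -0.03 and 0.48, and CYS4 lies close to both.

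The 3 genes that lead to methionine all rose. MET2 (YNL277W) encodes homoserine O-acetyltransferase, which activates homoserine so that sulfide can be added. Its values were 8.50, 8.47 and 8.48 on the methanol arrays and 10.02, 9.91 and 9.84 on the LoaOOH arrays. The 2 ranges lay 1.34 apart, while the wider of them spanned 0.182. The difference was 1.44 (SE 0.053, limma adjusted p = 3.1e-08), and 3.56% of all probe sets differed by more in either direction.

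MET13 (YGL125W) encodes the main methylenetetrahydrofolate reductase, which supplies the methyl group carried by folate. It stood at 10.3, 10.2 and 9.93 in methanol and at 10.9, 10.7 and 10.8 in LoaOOH. Methanol replicate 3 lay below the other methanol arrays by more than in any other member, which gives MET13 the largest standard error of the 10. The groups still did not overlap, and the difference was 0.68 (SE 0.086, 1.60-fold, limma adjusted p = 7.45e-05). It ranged from 0.57 to 0.74 when each array was left out in turn, and the gene was called each time.

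MET6 (YER091C) encodes methionine synthase, which transfers that methyl group to homocysteine. It read 14.1, 14.1 and 14.0 in methanol and 14.6, 14.6 and 14.5 in LoaOOH, with no overlap. The difference of 0.52 (SE 0.049, 1.44-fold, limma adjusted p = 1.06e-05) was smaller than that of MET2, with 95% intervals of 0.41 to 0.64 and 1.32 to 1.56. The highest values on the arrays were 15.1, so MET6 lay near the top of their range and MET2 did not. How the level of a probe set affects the size of its difference was not tested.

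SAM1 (YLR180W) and SAM2 (YDR502C) encode the SAM synthetases, close copies of each other that catalyse the same reaction. SAM1 was at 12.4, 12.3 and 12.3 in methanol and at 13.3, 13.1 and 13.2 in LoaOOH, a rise of 0.86 (SE 0.055, limma adjusted p = 8.19e-07). SAM2 was at 14.0, 14.0 and 14.0 in methanol and at 13.6, 13.5 and 13.5 in LoaOOH, lower by 0.46 in the deposited scaling (difference -0.46, SE 0.044, limma adjusted p = 1.2e-05) and 0.06 higher, not called, with spike-ins. Neither gene's groups overlapped in the deposited scaling.

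A ratio within each array is free of any scaling that moves a whole array, so the pair was also compared in that way. SAM1 minus SAM2 was -1.61, -1.66 and -1.71 on the methanol arrays and -0.31, -0.34 and -0.34 on the LoaOOH arrays. It rose from -1.66 ± 0.0522 to -0.33 ± 0.0179 (SD, n = 3 each), by 1.33, which is a 2.51-fold shift toward SAM1 on these probe sets (exact permutation p = 0.1, the smallest that 3 against 3 arrays allow). The sign and size of the level of this ratio reflect the probes as well as the messages, and only its change is compared. Both probe sets carry the suffix of a probe set designed for a single transcript. How much of either message binds the other's probes was not tested.

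**Figure D3:**
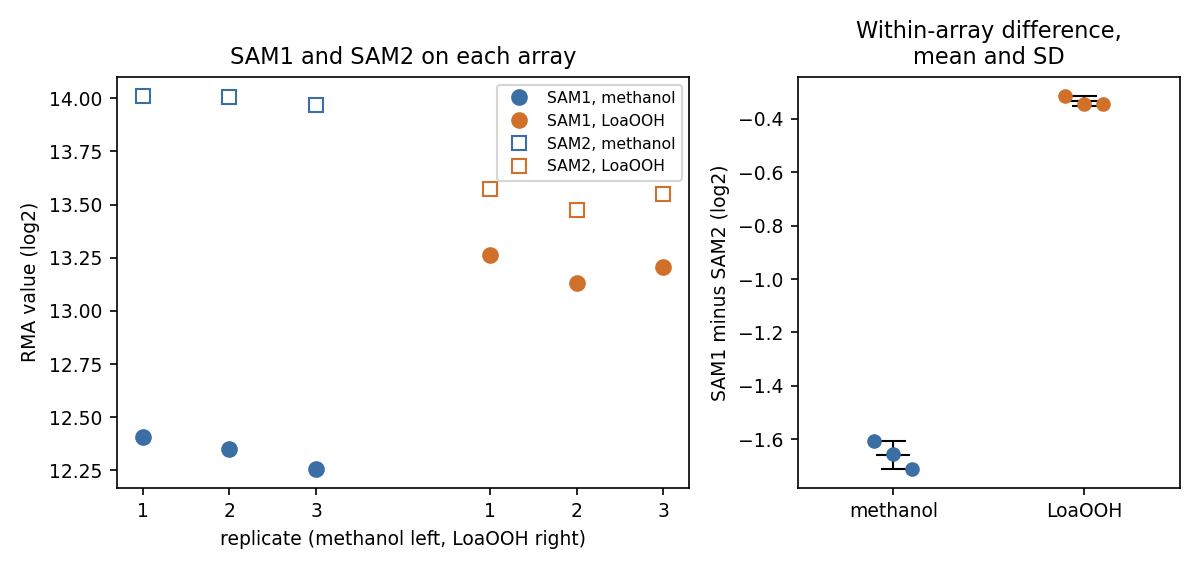
Left, log2 RMA values of SAM1 (filled circles) and SAM2 (open squares) by replicate, methanol in blue and LoaOOH in orange. Right, SAM1 minus SAM2 within each array with mean and SD, which moved from -1.66 in methanol to -0.33 in LoaOOH.

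SAH1 (YER043C) encodes S-adenosylhomocysteine hydrolase, which returns homocysteine after methyl transfer. Its values were 14.2, 14.3 and 14.2 in methanol and 14.4, 14.5 and 14.4 in LoaOOH, with no overlap. The groups were separated by 0.149, and the difference of 0.21 (SE 0.042, 95% interval 0.11 to 0.30, limma adjusted p = 0.00155) is small among all probe sets, 67.8% of which differed by more.

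CYS4 (YGR155W) encodes cystathionine beta-synthase, which commits homocysteine to the route toward cysteine. It stood at 13.7, 13.7 and 13.6 in methanol and at 13.6, 13.6 and 13.6 in LoaOOH, and the groups overlapped. The difference of -0.04 was not called (SE 0.042, 95% interval -0.13 to 0.06, limma adjusted p = 0.437). Of all probe sets 94.2% differed by more.

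CYS3 (YAL012W) encodes cystathionine gamma-lyase, which releases cysteine. It was at 12.5, 12.4 and 12.3 in methanol and at 12.3, 12.1 and 12.1 in LoaOOH, and LoaOOH replicate 1 lay above methanol replicate 3. The difference of -0.19 (SE 0.070, 95% interval -0.35 to -0.03) passed the test narrowly (limma adjusted p = 0.0314). It missed the threshold without methanol replicate 1 or 2 or without LoaOOH replicate 2 or 3 (limma adjusted p = 0.0736 to 0.108), and with spike-in scaling it was positive.

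The reverse route was higher in both of its genes. STR2 (YJR130C) encodes cystathionine gamma-synthase, which joins cysteine to activated homoserine. It read 10.9, 10.9 and 10.9 in methanol and 11.6, 11.7 and 11.7 in LoaOOH. The groups lay 0.702 apart and neither group spanned more than 0.0667, and the rise was 0.75 (SE 0.042, 1.68-fold, limma adjusted p = 3.92e-07).

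STR3 (YGL184C) encodes cystathionine beta-lyase, which releases homocysteine from cystathionine. It was at 8.96, 8.78 and 8.76 in methanol and at 10.4, 10.5 and 10.6 in LoaOOH. Its rise of 1.67 (SE 0.062, 3.18-fold, 95% interval 2.89-fold to 3.51-fold, limma adjusted p = 3.19e-08) was the largest of the 10, and 1.95% of all probe sets differed by more. Its interval, 1.53 to 1.81, overlaps that of MET2, 1.32 to 1.56, at the edge, and the difference between these 2 genes was not tested. With each array left out in turn STR3 ranged from 1.63 to 1.74 and MET2 from 1.39 to 1.48.

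Within the methanol group, replicate 3 was the lowest array for 9 of the 10 genes, MET2 being the exception, while over all probe sets it was lowest in 39.5%. Without methanol replicate 3 all 7 rising genes were still called. In the LoaOOH group the lowest array was replicate 1 for 3 genes, replicate 2 for 4 and replicate 3 for 3.

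Relatives of the members had probe sets of their own. MET12, the other methylenetetrahydrofolate reductase, rose by 0.15 (SE 0.048, limma adjusted p = 0.0176) beside 0.68 for MET13. IRC7, a relative of STR3, rose by 0.26 (SE 0.042, adjusted p = 0.000381) beside 1.67. YML082W, a relative of STR2, was lower by 0.24 in the deposited scaling (difference -0.24, SE 0.077, adjusted p = 0.017) and at 0.28, not called, in the spike-in scaling, beside 0.75 for STR2. The differences between these pairs were not tested.

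Around the cycle, 55 other genes of sulfur amino acid metabolism were measured in lists by role, and 35 rose, 16 were lower and 4 were not called (median 0.39). Over all probe sets 36.8% were higher and 41.9% lower, and the list counts below stand beside these shares too. In the spike-in scaling 43 of the 55 were higher and 4 lower, beside 65.9% and 7.68% of all probe sets, so the lower count is near the background. Upstream, 9 of 10 genes of sulfate uptake and reduction rose and 1 was lower (median 1.43). SUL1, a sulfate permease below the brightest negative control in methanol, was at least 5.36-fold higher, MET3, the ATP sulfurylase, rose by 2.42 and MET10, a sulfite reductase subunit, by 2.07. MET8, which makes the sirohaem cofactor of that reductase, was at -0.25 in the deposited scaling and at 0.27, not called, in the spike-in scaling.

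Of 9 genes for homoserine, sulfide addition and folate supply, 7 rose, 1 was lower and 1 was not called (median 0.39). HOM3, the aspartate kinase at the head of homoserine synthesis, rose 3.01-fold, from 11.5 ± 0.0834 to 13.1 ± 0.0362 (SD, n = 3). MET17, which adds sulfide to the product of Met2 and of which this strain has lost a copy, rose 2.77-fold. SHM2, the cytosolic serine hydroxymethyltransferase, rose 1.87-fold, and MET7, a folylpolyglutamate synthetase, was at -0.22 in the deposited scaling and 0.30 in the spike-in scaling. Met2 makes O-acetylhomoserine and both Met17 and Str2 use it. The 3 genes were higher in the deposited scaling, and spike-in scaling, which moves every difference up, could not turn that.

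Of 10 genes for salvage of methylthioadenosine, polyamine synthesis and alternative methylation of homocysteine, 7 rose, 2 were lower and 1 was not called (median 0.46). MHT1, which methylates homocysteine from S-methylmethionine, rose 3.55-fold, and UTR4 and ADI1, both of methionine salvage, rose 2.15-fold and 1.92-fold. MDE1, of the same salvage route, was at -0.43 in the deposited scaling and 0.09, not called, with spike-ins. Among 5 permeases 3 rose and 2 were lower: MUP3, a low-affinity methionine permease, rose 3.28-fold, MMP1, for S-methylmethionine, 2.73-fold and YCT1, for cysteine, 1.08-fold, while SAM3, for SAM, fell 2.13-fold and stayed lower (-0.57) with spike-ins.

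The enzymes that use SAM were more often lower than higher in the deposited scaling. Of 13, 8 were lower, 3 higher and 2 not called (median -0.19, against -0.03 over all probe sets). With spike-ins 7 were higher and 3 lower, beside 65.9% and 7.68% of all probe sets. The list median was then 0.33, against 0.48 over all probe sets. Both medians move by the same amount, so the gap between them is the same in both scalings by construction. BIO3, which uses SAM as an amino donor in biotin synthesis, fell 7.08-fold, COQ3, a methyltransferase of coenzyme Q synthesis, 2.41-fold and DOT1, a histone H3 methyltransferase, 1.87-fold, and all 3 were lower in both scalings. DPH5, which methylates a precursor of diphthamide, rose 2.08-fold. Among 6 regulators of the pathway 5 rose and 1 was lower (median 0.45). MET28 and MET32, partners of the activator Met4, rose 4.41-fold and 2.23-fold, MET4 itself rose 1.39-fold, and MET30, the ubiquitin ligase subunit that restrains Met4, was at -0.62 in the deposited scaling and -0.10, not called, with spike-ins.

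**Figure D4:**
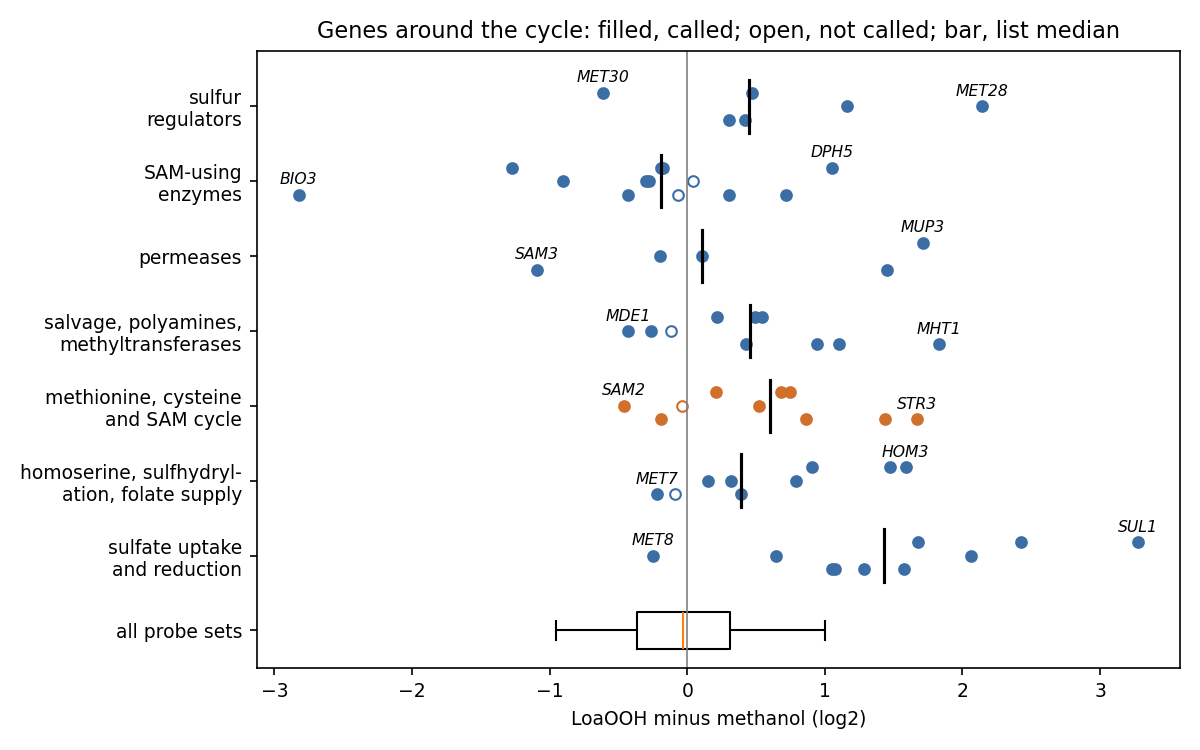
LoaOOH minus methanol (log2, horizontal axis) for each gene by list, with the 10 genes of the cycle in orange, other lists in blue, open circles for genes not called and a bar at each list's median. The box shows the quartiles of all probe sets, -0.37 and 0.31, with whiskers at the 5th and 95th percentiles, -0.96 and 1.00; the lowest and highest gene of each list is named.

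No 2 of the 10 genes are neighbours in the yeast gene table of assembly R64. Their 20 flanking protein-coding genes do not overlap them and were all measured, with differences from -1.25 to 1.94. Of the 20, 5 differed at least 2-fold, 25% beside 9.17% of all probe sets. These 5 were named after their values were seen. MND1, a gene of meiotic recombination next to STR3, stood at 1.94, and MXR1, a methionine sulfoxide reductase gene next to SAH1, at 1.90. GTO1, a glutathione transferase gene next to CYS4, stood at 1.13, TRP2, of tryptophan synthesis and next to MET6, at 1.04, and PLM2, next to SAM2, at -1.25.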

How the data were processed

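The authors deposited log2 values, 1 per probe set and array. Per the submitters' processing notes the tools were RMA and Partek, with no role or version stated. RMA subtracts background, quantile-normalises arrays and summarises probes, so a change shared by most messages is hidden. Groups came from the sample titles, and the labels call the replicates biological. Of 5900 probe sets, 184 were controls, 218 carried no gene name, and the other 5498 each named 1 gene. The fit used limma 3.58.1 in R 4.3.3 (lmFit, eBayes, no covariate, two-sided, Benjamini-Hochberg over 5498 probe sets), and was tested on simulated data. Precision is limited by how few arrays there are; the standard error, 0.0527 in the median, does not cover the choice of scaling. Where a mean lay below the brightest negative control (5.15) the fold is a bound. The genes and lists were chosen with earlier results of these data known. From each surrounding list the text names up to 3 called genes with the largest change in the more frequent direction and the largest called change the other way, and every relative of a member. YLL058W had no probe set here. Sequences were not used here. Alternatives were quantile, median and spike-in scaling, other variance models, array weights, filters on dim or cross-hybridising probe sets, stricter thresholds, the replicate block and each array left out.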

Additional observations from a re-analysis of the deposited data

How the results depend on the processing

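Each gene was refitted under 17 alternatives, MET2 under 16 because it is among the dimmest 25% of probe sets, which 1 alternative leaves out. Of 169 such values 154 kept direction and call, 12 kept direction and lost the call, and 3 changed sign. The changes of sign all came with spike-in scaling: CYS3 to 0.33, CYS4 to 0.48 and SAM2 to 0.0554, which was not called. That scaling left 0 members lower and, among the other pathway genes, 4 lower, and over all probe sets 3625 higher and 422 lower. CYS3 lost its call with centring on array medians, without variance moderation and at an adjusted p under 0.01, which left 1 member lower each time; leaving out arrays in turn gave 1 to 2 lower. Testing against a log2 change of 0.5 with treat called 4 members (4 higher, 0 lower), 25 other pathway genes (21 and 4) and 1221 probe sets (581 and 640), since it asks for a larger change. STR2, STR3, MET2 and SAM1 were called in all fits that held them. Same-numbered arrays deviated together at r = 0.310, 0.0491 and 0.258. Arrays with different numbers ranged from -0.297 to 0.133, and methanol replicate 2 was slightly closer to LoaOOH replicate 1 (0.0652) than to LoaOOH replicate 2. Whether equal numbers mark a shared batch was not tested, and the main fit took no pairs. With the replicate block 9 members and 4453 probe sets were called, and SAM1 minus SAM2 stayed at 1.33 (exact sign-flip permutation p = 0.25, the smallest for 3 pairs). The array weights fit stopped before its tolerance was reached.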
